A study of Mus musculus with 6 samples.

Results

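The genes described here act in meiotic prophase, the stage in which homologous chromosomes pair, are held together by the synaptonemal complex and exchange DNA. They were 29 genes chosen by symbol, out of 37924 genes in the deposited table, and all 29 were found there, 1 row each. The choice used gene names, and it was made with earlier results of these data known. Transcript levels had been measured by RNA sequencing in whole ovaries of mice at postnatal day 14, strain C57BL/6J/129S7/SvEvBrd, in 6 libraries. In the 3 control libraries the mice carried 2 copies of a floxed allele of Ubc9 and no Cre. In the 3 conditional knockout libraries, called cKO, the mice had the same 2 floxed copies and were positive for Gdf9iCre, in which the oocyte promoter of Gdf9 drives Cre, so that the floxed allele was common to both groups. Each library was a pool of 1 ovary from each of 3 mice, and the spread between libraries is therefore a spread between pools. Whole ovary also holds granulosa, theca, stroma and other cells, in which Gdf9iCre is not expected to act.

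In the mouse ovary, oocytes enter meiosis before birth, complete synapsis and recombination, and then rest in the arrested dictyate stage. At postnatal day 14 the ovary holds oocytes in that arrest inside resting and growing follicles. Cohesin, a ring of SMC and kleisin subunits, has meiosis-specific subunits that hold sister chromatids together through the long arrest. The synaptonemal complex joins 2 chromosome axes through transverse filaments and a central element, and it is taken apart before the arrest.

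Levels are given as FPKM, fragments per kilobase of transcript and per 1e6 mapped fragments, which can be compared between genes. Of the 29 genes, 20 had a mean of at least 0.5 FPKM over the 6 libraries and were tested, and in all 20 both group means were at least 0.5 FPKM. The other 9 were below that level. Just inside the limit were Meiob and Dmc1, with means of 0.555 and 0.539 FPKM, and just outside it were Tex11 and Hormad2, with means of 0.458 and 0.376 FPKM. A log2 change compares cKO with control after adding 1 to each FPKM and taking log2, so it is smaller than the true change where levels are low. A gene is said to rise or fall where the adjusted p of limma, over all 14934 genes tested, was below 0.05.

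Libraries held an estimated 19.6 to 24.9 M fragments each, with M standing for 1e6. No marker of oocytes, granulosa, theca or stroma cells was at 0 in all libraries. The summed level of 12 oocyte markers was 1047 to 1191 FPKM in controls and 1397 to 2154 FPKM in cKO, and 3 of these 12 rose and none fell. The summed level of 8 markers of dividing cells was 390 to 443 FPKM in controls and 262 to 288 FPKM in cKO, and 4 of these 8 fell and none rose. Among 8 granulosa cell markers 3 fell and none rose, with summed levels of 3041 to 3854 FPKM in control and 2013 to 2420 FPKM in cKO, and among 4 stroma markers 2 rose and none fell, with 410 to 481 FPKM in control and 574 to 782 FPKM in cKO. The mitochondrial share of summed FPKM was lowest in cKO 1, at 7.31%, against 10.7% to 14.2% in the other libraries. The part of the granulosa and stroma cell changes in the results below was not tested. Control 3 stood apart from the other controls in fat markers, with a summed level of 37.0 FPKM for 5 genes. The sum was 14.2 and 15.0 FPKM in control 1 and control 2 and 15.5 to 17.0 FPKM in cKO. It hides opposite directions: Adipoq, Fabp4, Cfd and Lep were highest in control 3, and Fabp4 and Cfd were lower in every cKO library than in any control. Plin1 was lowest in control 3, at 4.95 FPKM, and rose from a mean of 5.97 FPKM in controls to 12.1 FPKM in cKO (limma adjusted p 0.0231). In bulk ovary, a change in the number of cells of a type and a change in RNA per cell cannot be told apart.

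Syce1 and Smc1b rose in cKO ovaries and Sgol2 fell, while 17 of the 20 measured genes did not pass the test. Syce1 encodes a central element protein of the synaptonemal complex, Smc1b the meiosis-specific SMC subunit of cohesin, and Sgol2 the shugoshin that protects cohesin at centromeres. The 2 genes that rose were 10% of the 20, against 2.24% of all genes tested, and the 1 that fell was 5%, against 2.09% of all genes tested. All cKO libraries lay above all control libraries for 4 of the 20, and 18.0% of all genes tested did so. All cKO libraries lay below all control libraries for 2 of the 20, against 12.0% of all genes tested. Together these 6 genes without overlap were 30.0% of the 20, and the share over all genes tested was also 30.0%. The median log2 change of the 20 was 0.09, beside 0.05 over all genes tested, and 13 of the 20 were positive, or 65%, beside 58.5% of all genes. The list thus lay near the rest of the table in direction and in overlap, and the results below concern single genes.

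**Figure D1:**
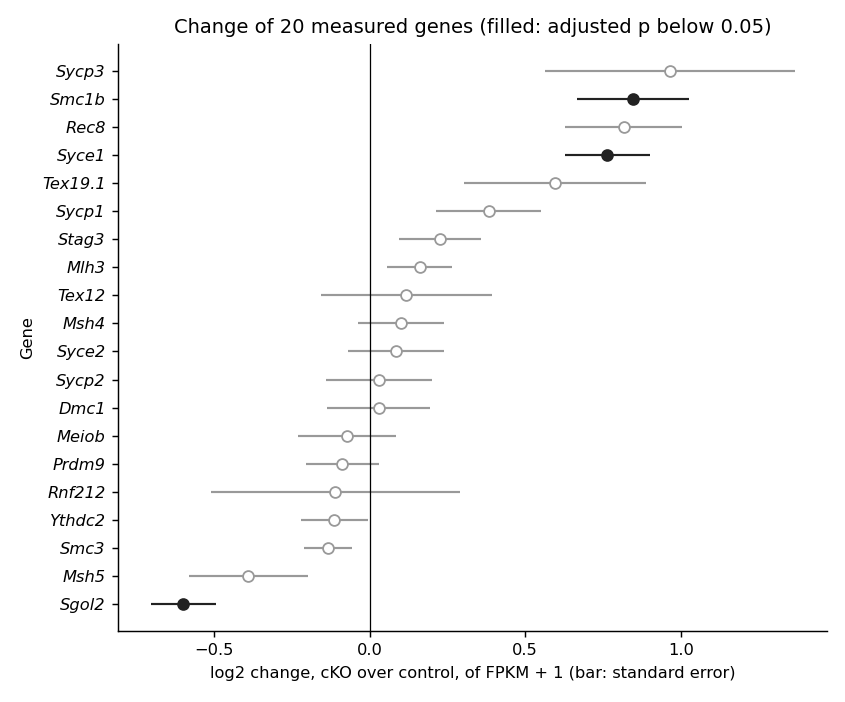
log2 change of FPKM + 1, cKO over control (x axis), for the 20 measured meiotic prophase genes (y axis), with bars of 1 standard error and filled points where the adjusted p of limma was below 0.05. Syce1 and Smc1b lie at 0.76 and 0.85, Sgol2 at -0.60, and Sycp3 has the largest change of the 20, 0.97, with a wide bar and no pass.

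Promoters of the 3 genes that passed, and of the axis gene Sycp3, are shown because meiotic genes are known to share promoter elements bound by E2F factors and by MAX with its partners, which repress germ cell genes in other cells. Each window is 300 bases, from 250 bases before to 50 after a gene start in RefSeq (build GRCm38.p6), printed on the gene's strand. Capitals mark GCGGGA or its reverse complement TCCCGC, the core bound by E2F factors, and CACGTG, the E-box bound by MAX. The windows are chr7:140787805-140788104 (minus strand) for Syce1, chr15:85131908-85132207 (minus) for Smc1b, chr1:57995724-57996023 (plus) for Sgol2 and chr10:88459337-88459636 (plus) for Sycp3.
Syce1: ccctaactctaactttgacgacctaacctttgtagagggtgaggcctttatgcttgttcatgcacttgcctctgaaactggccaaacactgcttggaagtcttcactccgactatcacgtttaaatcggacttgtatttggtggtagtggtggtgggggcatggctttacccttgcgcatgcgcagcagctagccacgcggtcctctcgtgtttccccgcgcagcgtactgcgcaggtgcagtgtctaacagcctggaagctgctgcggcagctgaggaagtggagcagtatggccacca
Smc1b: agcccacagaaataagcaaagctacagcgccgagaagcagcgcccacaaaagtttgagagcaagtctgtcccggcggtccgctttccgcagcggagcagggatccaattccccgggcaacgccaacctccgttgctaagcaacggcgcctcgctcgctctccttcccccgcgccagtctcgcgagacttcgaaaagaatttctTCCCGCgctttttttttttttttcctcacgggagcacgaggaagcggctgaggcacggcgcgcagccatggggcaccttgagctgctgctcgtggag
Sgol2: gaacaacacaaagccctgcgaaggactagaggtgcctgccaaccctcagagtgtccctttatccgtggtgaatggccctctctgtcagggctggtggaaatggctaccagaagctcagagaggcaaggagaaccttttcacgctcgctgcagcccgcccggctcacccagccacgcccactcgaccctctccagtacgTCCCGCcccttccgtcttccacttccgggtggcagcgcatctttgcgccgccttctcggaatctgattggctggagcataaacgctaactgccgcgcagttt
Sycp3: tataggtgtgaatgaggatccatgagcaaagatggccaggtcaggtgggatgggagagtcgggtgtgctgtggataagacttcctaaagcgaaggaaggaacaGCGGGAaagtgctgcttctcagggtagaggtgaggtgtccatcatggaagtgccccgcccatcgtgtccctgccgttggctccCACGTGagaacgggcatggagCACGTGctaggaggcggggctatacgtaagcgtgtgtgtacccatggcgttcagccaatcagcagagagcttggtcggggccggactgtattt
The window of Syce1 holds neither motif, those of Smc1b and Sgol2 hold 1 E2F core each, and that of Sycp3 holds 1 E2F core and 2 E-boxes. Of the 29 genes, 25 were found in the RefSeq promoter table. In at least 1 window, 16 of the 25 (64%) held the E2F core and 7 (28%) the E-box, and all 7 held both. Among the 18 of these 25 that were tested, the shares were 77.8% for the E2F core, 33.3% for the E-box and 33.3% for both. Among protein-coding genes tested in the same libraries the shares were 39.4% for the E2F core, 11.6% for the E-box and 5.24% for both. Among all genes in the promoter table they were 22%, 8.09% and 2.65%. The median number of CG pairs per gene was 18 in the 25 and 20 in the 18 tested, against 21 in the tested protein-coding genes and 8 in all genes. A match of these letters is a description of the window only: of the 2 genes that rose, Smc1b held the E2F core and Syce1 did not.

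Among the genes for the central region of the synaptonemal complex, Syce1 rose. It lies at chr7:140777229-140787852 on the minus strand. Syce1 measured 0.508, 0.639 and 0.815 FPKM in control 1 to 3 and 2.10, 1.63 and 1.69 FPKM in cKO 1 to 3. Every cKO library lay above every control library, and cKO 1 was the highest. The mean was 0.654 ± 0.154 FPKM in controls and 1.81 ± 0.254 FPKM in cKO (SD, n = 3), a ratio of 2.76. The log2 change was 0.76 ± 0.14 (standard error), and limma gave an adjusted p of 0.0338. These levels are low: at the estimated depths they stand for about 15.1 to 20.9 fragments in a control library and 48.1 to 64.1 in a cKO library.

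The other central region genes did not pass. Syce2, whose product builds the central element with that of Tex12, had the highest level of the 29 genes, with 45.1, 50.3 and 54.2 FPKM in control 1 to 3 and 53.7, 42.1 and 65.0 FPKM in cKO 1 to 3. The groups overlapped, and cKO 2 was the lowest of the 6 libraries and cKO 3 the highest. Tex12 itself was low, at 0.658 ± 0.293 FPKM in controls and 0.857 ± 0.620 FPKM in cKO (SD, n = 3), with the lowest value, 0.188 FPKM, and the highest, 1.41 FPKM, both in cKO. The levels of Syce2 and Tex12, which act together in the complex, were thus far apart in this tissue. Sycp1, which encodes the transverse filament, measured 0.455, 0.492 and 0.948 FPKM in control 1 to 3 and 1.39, 0.947 and 1.01 FPKM in cKO 1 to 3. Control 3 was level with cKO 2, and the log2 change of 0.38 had an adjusted p of 0.217. Syce3, a further central element gene, was listed at 0 in 5 libraries and at 0.743 FPKM in cKO 1, which stands for about 6.99 fragments.

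Among the cohesin genes, Smc1b rose. It lies at chr15:85064689-85131964 on the minus strand. Smc1b measured 1.23, 1.52 and 2.09 FPKM in control 1 to 3 and 4.70, 2.92 and 3.53 FPKM in cKO 1 to 3. The groups did not overlap, with control 3 nearest to the cKO libraries and cKO 1 the highest. For both Syce1 and Smc1b the highest library was thus the one with the lowest mitochondrial share, whose part in the result was not tested. Without cKO 1 the log2 changes were 0.69 for Syce1 and 0.70 for Smc1b, and neither passed, at adjusted p-values of 0.112 and 0.136 by limma. The mean was 1.61 ± 0.436 FPKM in controls and 3.72 ± 0.902 FPKM in cKO (SD, n = 3), a ratio of 2.30, and the log2 change was 0.85 ± 0.18 (standard error; limma adjusted p 0.0464).

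Rec8 and Stag3, the meiotic kleisin and the meiotic STAG subunit of the same ring, were also higher in every cKO library than in any control library, but neither passed the test. Rec8 (chr14:55618037-55625395, plus strand) measured 3.02, 1.98 and 2.37 FPKM in control 1 to 3 and 5.83, 5.96 and 3.65 FPKM in cKO 1 to 3. The ratio of its means was 2.09, and its log2 change of 0.82 ± 0.19 (standard error) had an adjusted p of 0.0572, just above the threshold. Stag3 measured 1.16, 1.30 and 1.44 FPKM in control 1 to 3 and 2.02, 1.61 and 1.44 FPKM in cKO 1 to 3, with cKO 3 close to control 3, a log2 change of 0.23 and an adjusted p of 0.341. Smc3, the SMC subunit shared by mitotic and meiotic cohesin, was far higher and slightly lower in each cKO library, at 27.6, 25.2 and 26.0 FPKM in control 1 to 3 and 25.1, 23.5 and 22.9 FPKM in cKO 1 to 3. The gap between the groups was small, the log2 change was -0.13 and the adjusted p 0.333.

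The meiotic subunits were set beside their counterparts in cohesin of all dividing cells within each library, a ratio that does not depend on how libraries are scaled. Markers of oocytes and of dividing cells differed between the groups, and the part of the cell mix in these ratios was not tested. Smc1b stood at 3.72%, 4.16% and 5.84% of the level of Smc1a in control 1 to 3 and at 13.7%, 9.63% and 11.7% in cKO 1 to 3. Rec8 stood at 4.08%, 2.71% and 3.43% of the level of the mitotic kleisin gene Rad21 in control 1 to 3 and at 8.33%, 10.3% and 6.24% in cKO 1 to 3. Neither ratio overlapped between the groups, and neither did the levels of Smc1b and Rec8 themselves. For Stag3 over the sum of Stag1 and Stag2 the groups touched, at 2.39% to 3.14% in control and 3.14% to 3.93% in cKO. Of 10 cohesin genes of all dividing cells none rose and none fell by limma, and at an unadjusted p below 0.05, 1 was higher and 3 lower, where 14.5% of all genes tested were higher and 9.80% lower. Rad21 and Smc1a, the most abundant of them, measured 72.1 and 35.2 FPKM in controls and 62.1 and 31.6 FPKM in cKO.

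Sgol2 fell. It lies at chr1:57995971-58025899 on the plus strand and is named Sgo2a in GENCODE M21. Sgol2 measured 6.35, 6.37 and 5.49 FPKM in control 1 to 3 and 4.08, 3.52 and 3.40 FPKM in cKO 1 to 3. All cKO libraries lay below all controls, and control 3 was the lowest control. The mean was 6.07 ± 0.504 FPKM in controls and 3.67 ± 0.361 FPKM in cKO (SD, n = 3), a ratio of 0.605, and the log2 change was -0.60 ± 0.11 (standard error; limma adjusted p 0.0325). Sgol2 shares 35% of its annotated exon bases with Kctd18 on the opposite strand, and the strand setting is not given in the sources used here. The mean of Kctd18 was 6.23 FPKM in control against 6.67 in cKO. The related gene Sgol1, which protects cohesin in mitosis, fell too, from 7.77 to 4.79 FPKM (log2 change -0.60, adjusted p 0.0387).

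**Figure D2:**
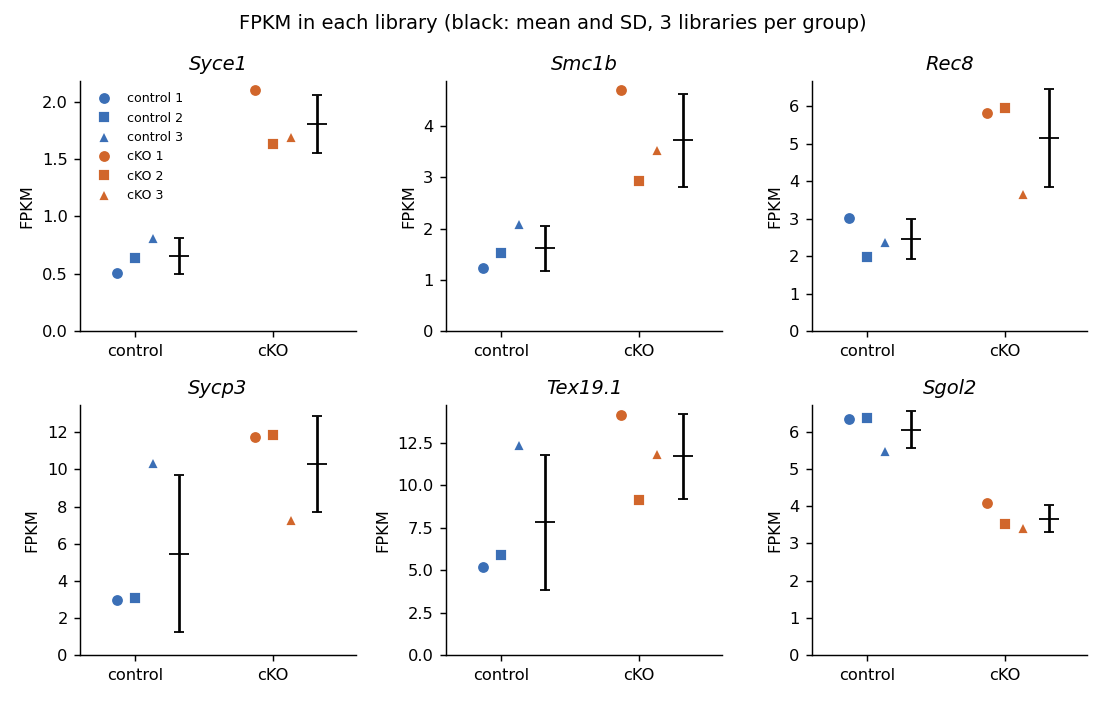
FPKM (y axis, from 0) of Syce1, Smc1b, Rec8, Sycp3, Tex19.1 and Sgol2 in each of 3 control and 3 cKO libraries (x axis), with the mean and SD of each group in black. Groups do not overlap for Syce1, Smc1b, Rec8 and Sgol2, while control 3 sits among the cKO libraries for Sycp3, at 10.3 FPKM, and for Tex19.1, at 12.4 FPKM.

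Among the chromosome axis genes, Sycp3, which encodes the main protein of the lateral element, had the largest log2 change of the 20 measured genes and did not pass. Sycp3 (chr10:88459569-88473236, plus strand) measured 2.97, 3.05 and 10.3 FPKM in control 1 to 3 and 11.7, 11.9 and 7.28 FPKM in cKO 1 to 3. Control 3 was above cKO 3 and more than 3 times the other controls. The mean was 5.45 ± 4.23 FPKM in controls and 10.3 ± 2.61 FPKM in cKO (SD, n = 3), and the log2 change was 0.97 ± 0.40 (standard error; adjusted p 0.196). Sycp3 shares 52.2% of its exon bases with Chpt1 on the opposite strand, which measured 12.6, 13.4 and 15.5 FPKM in control 1 to 3 and 14.7, 18.9 and 13.9 FPKM in cKO 1 to 3. Sycp2, the partner of Sycp3 in the lateral element, was low and level, at 0.634 ± 0.291 FPKM in controls and 0.655 ± 0.144 FPKM in cKO (SD, n = 3), with an adjusted p of 0.933.

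Tex19.1, a germ cell gene that restrains transposons and is needed for normal synapsis in the male, had the same order of libraries as Sycp3 in the controls. It measured 5.16, 5.91 and 12.4 FPKM in control 1 to 3 and 14.2, 9.12 and 11.9 FPKM in cKO 1 to 3. Tex19.1 and its close relative Tex19.2 can share fragments. The groups overlapped through control 3, and the adjusted p was 0.261 for a log2 change of 0.60. Without control 3, Sycp3 and Tex19.1 both passed, Sycp3 with a log2 change of 1.46 (adjusted p 0.0185) and Tex19.1 with 0.94 (adjusted p 0.0402). Over all alternatives run, Sycp3 passed under 2 of 18 and Tex19.1 under 1 of 18. With control 3 and cKO 3 both left out, Tex19.1 did not pass (limma adjusted p 0.0928), while Sycp3 did (0.0145). Of the 12 oocyte markers, control 3 was the highest control for 7, such as Nobox and Ooep at 53.5 and 77.1 FPKM, and the lowest for 3, Bmp15, Oosp1 and Zp1, at 29.5, 50.6 and 77.7 FPKM. The sum of the 12 in control 3, 1152 FPKM, lay between those of the other controls. Their mean log2(FPKM + 1), in which abundant markers weigh less, was 5.57, 5.73 and 5.81 in control 1 to 3, so that control 3 was the highest control. Control 3 was the highest control for 10 of the 20 measured genes (50%), beside 38.1% of all genes tested, and all 10 had a positive log2 change, as did 68.8% of all tested genes with control 3 as the highest control. The part of the makeup of control 3 in these values was not tested.

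**Figure D3:**
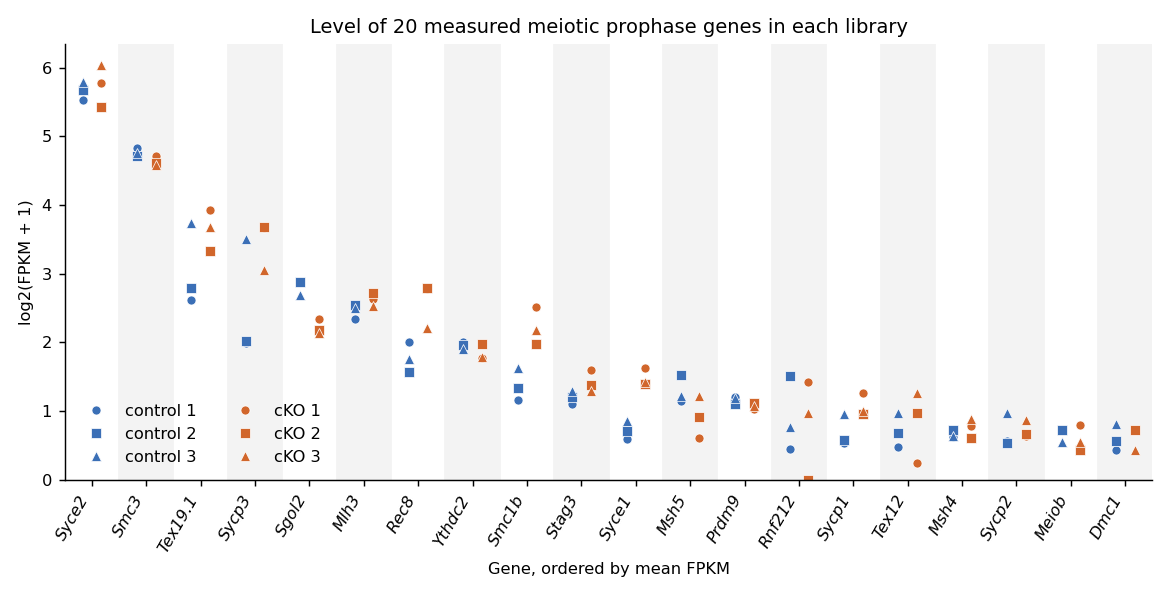
log2(FPKM + 1) of the 20 measured genes (x axis, ordered by mean FPKM) in each library, blue for control and orange for cKO, with 1 marker shape per library. Syce2 and Smc3 stand above all others, at mean levels of 51.8 and 25.1 FPKM, 9 genes have a mean of at least 2 FPKM, and in 10 genes control 3 (blue triangle) is the highest control.

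No gene for break formation, strand exchange or crossovers passed, and of those tested all but Mlh3 had means below 2 FPKM. Prdm9, the methyltransferase that marks sites of recombination, varied little, from 1.15 to 1.31 FPKM in controls and 1.05 to 1.18 FPKM in cKO, with a log2 change of -0.09 and an adjusted p of 0.687. Dmc1, the meiotic strand exchange protein, measured 0.524 ± 0.206 FPKM in controls and 0.553 ± 0.173 FPKM in cKO, and Meiob, which binds single-stranded DNA beside it, 0.591 ± 0.114 and 0.519 ± 0.206 FPKM (SD, n = 3). Mlh3, a mismatch repair gene of crossovers that somatic cells also express, was the highest of the crossover genes, at 4.53 ± 0.404 FPKM in controls and 5.17 ± 0.417 FPKM in cKO (SD, n = 3; adjusted p 0.388). Msh4 and Msh5 encode the partners of 1 complex that stabilises crossover intermediates, and their changes had opposite signs. Msh4 measured 0.586 and 0.705 FPKM in the group means, while Msh5 measured 1.22, 1.88 and 1.34 FPKM in control 1 to 3 and 0.521, 0.876 and 1.32 FPKM in cKO 1 to 3. In cKO 3 Msh5 was within the control range, and its log2 change of -0.39 had an adjusted p of 0.260. Rnf212, a crossover factor, ranged from 0.362 to 1.85 FPKM in control and from 0 to 1.68 FPKM in cKO, so its spread within a group was wider than any difference between the groups.

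The 9 genes below 0.5 FPKM were not tested. Their estimated fragments per library ran from 0 for Stra8 to between 16.2 and 55.0 for Tex11, beside 15.1 to 64.1 for the tested gene Syce1. Stra8, the gene for the retinoic acid-induced switch into meiosis, was listed at 0 in all 6 libraries, while Ythdc2, an RNA helicase gene needed for the same step and expressed outside germ cells too, measured 2.89 ± 0.136 FPKM in controls and 2.60 ± 0.277 FPKM in cKO (SD, n = 3; adjusted p 0.558). Spo11, the enzyme that cuts DNA to start recombination, reached 0.138 FPKM in cKO 2 and at most 0.0277 FPKM elsewhere. Mei1 lay between 0.0348 and 0.156 FPKM. Hormad1, an axis protein removed on synapsis, was listed at 0 in control 1 and control 2 and measured 0.0393 FPKM in control 3 and 0.174, 0.138 and 0.0934 FPKM in cKO 1 to 3, or about 3.68 to 6.42 fragments per cKO library. Its relative Hormad2 overlapped between the groups, from 0.196 to 0.417 FPKM in control and from 0.0722 to 0.631 FPKM in cKO. Tex11, an X-linked crossover gene, was higher in every cKO library, at 0.206, 0.311 and 0.488 FPKM in control 1 to 3 and 0.679, 0.574 and 0.493 FPKM in cKO 1 to 3. Mei4, a partner of the break machinery, was lower in every cKO library, at 0.372, 0.307 and 0.275 FPKM in control 1 to 3 and 0.206, 0.0802 and 0.0723 FPKM in cKO 1 to 3. Spata22 measured 0.119 to 0.136 FPKM in controls and 0.0719 to 0.0796 FPKM in cKO, and the identifier of its row carries the name Gm49340 in GENCODE M21, where it shares exons with Spata22 and Olfr20. With no filter on low values, 28 of the 29 genes could be tested and 0 passed.

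Oocytes are few among the cells of an ovary, so levels were set beside oocyte markers of the same library. When libraries were centred on the 12 oocyte markers, the log2 changes of Syce1 and Smc1b were 0.26 and 0.34 and neither passed, with adjusted p-values of 0.413 and 0.260. Rec8 moved to 0.31 and Tex19.1 to 0.09. This centring lowers all genes, with a median log2 change of -0.46 over the table. Under it 3 of the 20 members tested fell, Sgol2, Msh5 and Smc3, beside 5045 of all 14934 genes tested. As a ratio, Syce1 stood at 0.485, 0.536 and 0.708 FPKM per 1000 FPKM of summed oocyte markers in control 1 to 3 and at 1.22, 1.17 and 0.784 in cKO 1 to 3. The groups still did not overlap, but cKO 3 came close to control 3. For Smc1b and Rec8 the same ratios overlapped, at 1.18 to 1.81 in control and 1.64 to 2.73 in cKO for Smc1b, and 1.67 to 2.89 and 1.69 to 4.27 for Rec8. The oocyte markers themselves were not uniform: Zp2 rose from 241 to 452 FPKM, whereas Gdf9 measured 221 and 267 FPKM (limma adjusted p 0.476). Bmp15 measured 47.2 and 31.4 FPKM, its groups overlapped, and its limma adjusted p was 0.381.

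Sgol2 was set beside the 8 markers of dividing cells. It stood at 14.3, 15.2 and 14.1 FPKM per 1000 FPKM of their sum in control 1 to 3 and at 14.2, 13.4 and 12.3 in cKO 1 to 3. This ratio overlapped between the groups, while the level of Sgol2 did not. All 8 of these markers were lower in every cKO library than in any control, with Top2a falling from 80.7 to 43.7 FPKM.

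**Figure D4:**
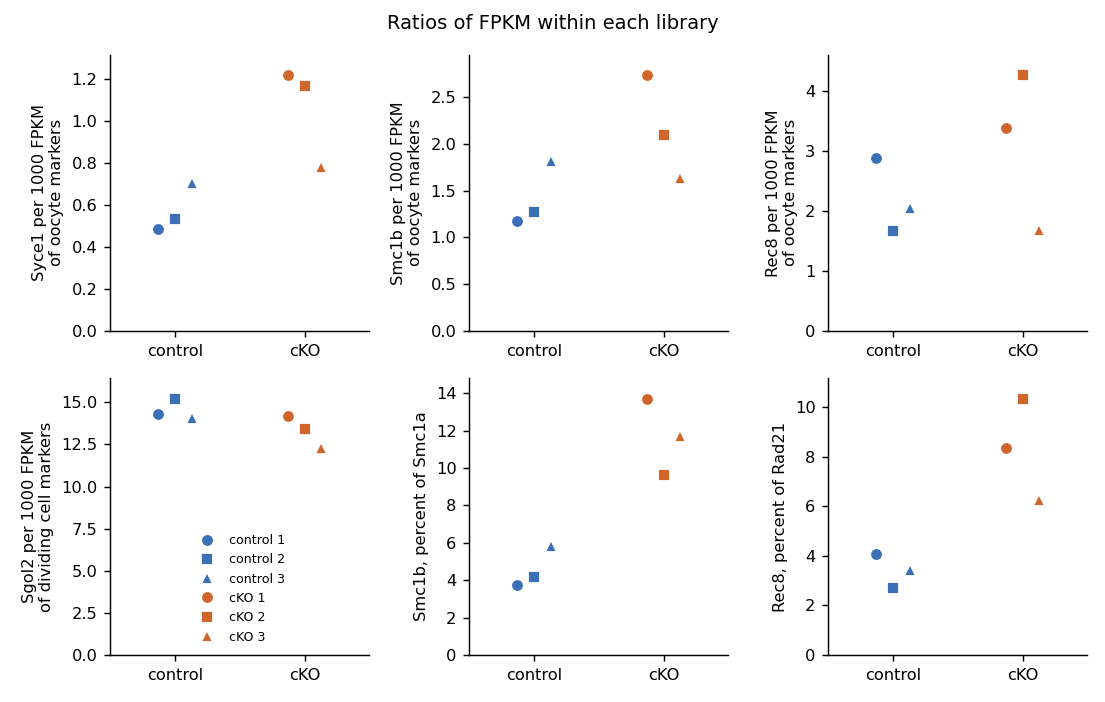
Ratios of FPKM within each library (y axes, from 0) for 3 control and 3 cKO libraries (x axis). The groups do not overlap for Syce1 over oocyte markers, Smc1b over Smc1a and Rec8 over Rad21, and they overlap for Smc1b and Rec8 over oocyte markers and for Sgol2 over dividing cell markers.

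Other genes of meiotic prophase were taken from a list of 37, of which 34 were found and 23 tested. Of these 23, none rose and 1 fell, the cohesin protector Sgol1 described above, and 10 had a positive and 13 a negative log2 change, with a median of -0.04. At an unadjusted p below 0.05, 2 were higher and 4 lower, beside the same 14.5% and 9.80% of all genes tested. The 3 lower ones other than Sgol1, named after their values were seen, were the strand exchange genes Swi5 and Psmc3ip and the gene Trip13, whose product removes HORMAD proteins from the axis. Swi5 measured 325, 331 and 323 FPKM in control 1 to 3 and 255, 262 and 273 FPKM in cKO 1 to 3 (log2 change -0.31, adjusted p 0.0554). Psmc3ip had group means of 11.3 and 9.36 FPKM and Trip13 of 8.71 and 6.89 FPKM, with adjusted p-values of 0.169 and 0.164. All cKO libraries lay below all controls for these 3 genes, and none of them passed. The 2 higher ones were Zcwpw1, a reader of the histone marks made by PRDM9, and Gm4969, now called Meiosin, a partner of STRA8; they too were named after their values were seen. Zcwpw1 measured 3.89, 4.24 and 5.83 FPKM in control 1 to 3 and 8.52, 6.15 and 6.56 FPKM in cKO 1 to 3 (log2 change 0.52, adjusted p 0.111). Gm4969 measured 0.408, 0.192 and 0.391 FPKM in control 1 to 3 and 0.944, 1.36 and 0.538 FPKM in cKO 1 to 3 (adjusted p 0.145), and it passed the filter on low values through the cKO group alone. The groups did not overlap for either gene, and neither passed.

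The calls of Syce1, Smc1b and Sgol2 depended on the libraries used. Their log2 changes kept their sign under every alternative run, from 0.26 to 1.35, from 0.34 to 1.16 and from -1.10 to -0.47. The adjusted p passed for Syce1 under 8 of 17 alternatives (range 0.0137 to 0.413), for Smc1b under 9 of 18 (0.0155 to 0.260) and for Sgol2 under 9 of 18 (0.00075 to 0.165). With control 1, control 2, cKO 1, cKO 2 or cKO 3 left out, none of the 3 passed, and all 3 passed with control 3 left out. Rec8 passed under 6 of 18 alternatives, among them the fit without cKO 3, at an adjusted p of 0.0411. Syce1 has 1 alternative fewer because its mean lies below the stricter limit of 2 FPKM.

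**Figure D5:**
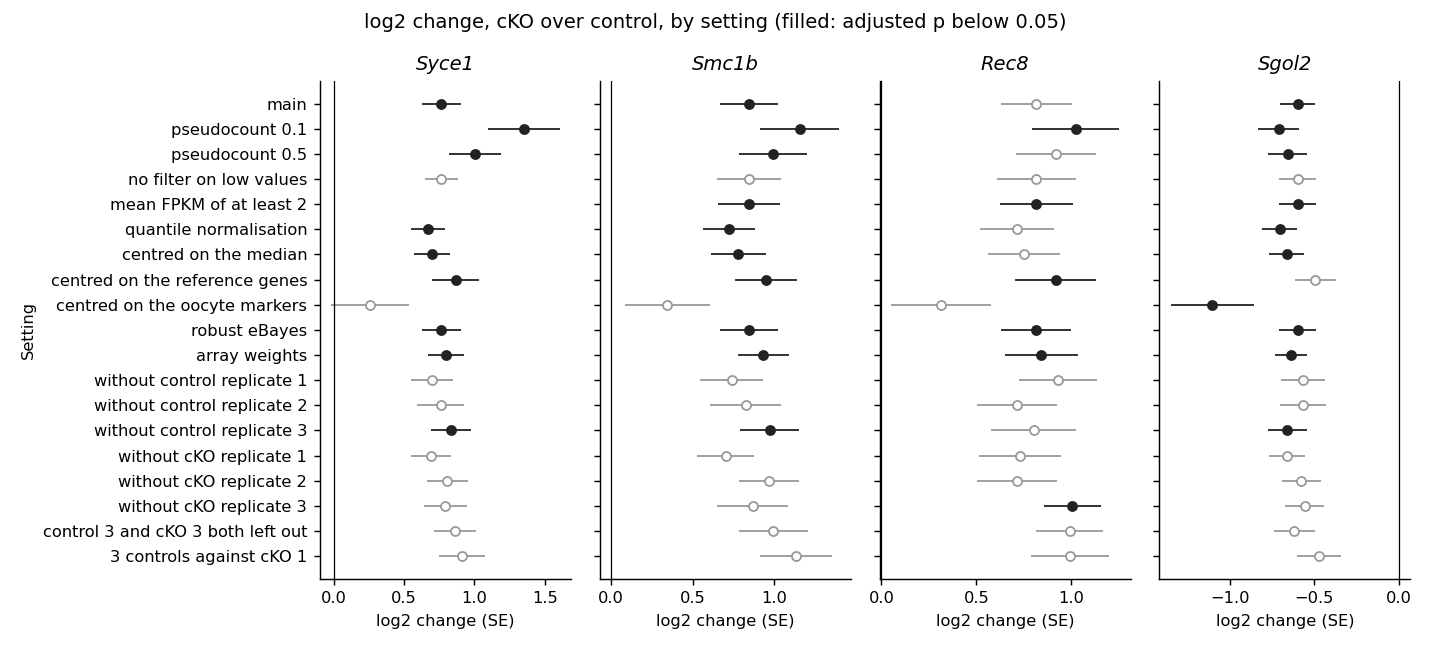
log2 change with its standard error (x axis) of Syce1, Smc1b, Rec8 and Sgol2 under each setting of the analysis (y axis), filled where the adjusted p of limma was below 0.05. Every point keeps the side of 0 that it has in the first line, and the open points at 0.26 for Syce1 and 0.34 for Smc1b are those centred on the oocyte markers.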

How the data were processed

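Each of the 6 libraries was a pool of 3 ovaries, and groups follow the genotype label. The deposited table gives FPKM per gene, computed by the authors; its header names no unit, which was read from the values. The submitters' processing notes name TopHat2 2.0, Cufflinks 2.0 and mm10 without saying what each was used for. Annotation, strand setting and scaling of libraries are not stated (not given in the sources used here). The test was limma 3.58.1 in R 4.3.3 (eBayes, trend on) on log2(FPKM + 1) for 14934 genes with a mean of at least 0.5 FPKM, with Benjamini-Hochberg adjustment over all of them. Depth was estimated from FPKM values below 0.15 in genes with 1 transcript and at least 1500 exon bases. Each was first read as 1 fragment, which gives a depth per gene. Only depths near the most common one were kept, 215 of 758 in control 1, and their median was taken. Fragment numbers per gene use the merged exon length less 150 bases and are rough. Coordinates and exon overlaps come from GENCODE M21 (GRCm38, the same assembly as mm10), and promoters from RefSeq. The procedure was tested on simulated data. Alternatives were other pseudocounts, filters, scalings and variance settings, and leaving out libraries. Library values are given for genes that passed, whose groups did not overlap or that had the highest means; values of Sycp3, Tex19.1, Sycp1, Msh5 and the low genes, and the within-library ratios, were chosen after the data were seen. The genes and lists were chosen with earlier results of these data known. The result for the gene deleted in cKO is not reported here.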

Additional observations from a re-analysis of the deposited data

How the results depend on the processing

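No paired analysis was possible because libraries carry no replicate numbers in their labels. Of the 20 measured genes, 2 rose and 1 fell. With no filter on low values 0 rose and 0 fell, out of 4 and 24 over the whole table. Centred on the median, the table gave 254 higher and 577 lower genes; by quantile normalisation 270 and 421; centred on the reference genes 677 and 229, with 0 members falling; centred on the oocyte markers 70 and 5045, with 0 members rising and 3 falling, against 334 and 312 as reported. Array weights gave 1041 and 743. Without control 3 and cKO 3 together, 1 member rose (Sycp3), 0 fell and 204 genes rose in all. With cKO 1 alone against the 3 controls, and assumed to vary as they do, 0 members rose, 0 fell and 22 genes rose and 1 fell in all. Leaving out 1 library at a time gave 0 to 4 members that rose, 0 to 1 that fell, and 0 to 307 and 2 to 353 genes in all. The table-wide counts were at most 40 higher and 38 lower without control 1, control 2, cKO 1 or cKO 2; without cKO 3 they were 209 and 176, and without control 3 they were 307 and 353.

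Changes of sign were limited to genes that did not pass. Centred on the oocyte markers these were Stag3 (-0.28), Sycp2 (-0.47), Sycp1 (-0.12), Syce2 (-0.42), Tex12 (-0.39), Dmc1 (-0.47), Msh4 (-0.40) and Mlh3 (-0.34). By quantile normalisation Sycp2 was -0.048 and Dmc1 -0.038, and centred on the median they were both -0.036. Centred on the reference genes Prdm9 was 0.015 and Meiob 0.030. Syce2 was -0.00096 without control 3 and cKO 3, and against cKO 1 alone Sycp2 was -0.057, Tex12 -0.47, Meiob 0.14 and Rnf212 0.51. With 1 library left out the ranges were -0.049 to 0.17 for Sycp2, -0.10 to 0.41 for Tex12, -0.056 to 0.13 for Dmc1, -0.42 to 0.29 for Rnf212, -0.18 to 0.011 for Meiob and -0.062 to 0.24 for Syce2. Each centring moves the log2 change of every gene by the same amount, so that small changes can change sign. The cause of the sign changes under the other settings was not tested.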

Other observations

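Tex19.2, the close relative of Tex19.1 on the same chromosome, did not repeat the high value of control 3. It measured 1.10, 1.13 and 0.834 FPKM in control 1 to 3 and 1.43, 1.39 and 2.01 FPKM in cKO 1 to 3, so that control 3 was its lowest library and cKO 3 its highest. The groups did not overlap. Rad21l, a further meiotic kleisin gene, was likewise lowest in control 3, at 0.0339 FPKM against 0.236 and 0.248 FPKM in the other controls, and measured 0.285, 0.444 and 0.560 FPKM in cKO 1 to 3; it was below the filter and was not tested. These 2 genes were named after their values were seen.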
